A study of Rattus norvegicus with 22 samples.

Results

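The colony-stimulating factor receptors and their ligands were followed across 22 RNA sequencing libraries of rat microglia. The members were chosen by name. They are the CSF-1 receptor gene Csf1r with its ligand genes Csf1 and Il34, the GM-CSF receptor chains Csf2ra (alpha) and Csf2rb (common beta), and the G-CSF receptor gene Csf3r. All 6 are among the 17284 genes of the deposited table. Of the 6, 5 reached at least 1 FPKM in at least 3 libraries and were tested, among 9691 genes in all, and Il34 did not. An FPKM value corrects a gene's fragment count for its transcript length and for library size, so levels of different genes are compared here per length.

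Csf1r is a receptor tyrosine kinase of the cell surface that binds either CSF-1 or IL-34, and microglia of the mouse brain are known to need its signal to survive. In the brain IL-34 is made mainly by neurons. The alpha chain of the GM-CSF receptor binds GM-CSF and pairs with the common beta chain, which is also used by the IL-3 and IL-5 receptors and passes the signal to Jak2 and Stat5. The G-CSF receptor is best known from neutrophils and their precursors.

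All cells came from the brains of Sprague-Dawley rats at postnatal day 21, without cerebellum, and were caught on dishes coated with an antibody to CD11b (clone OX42). The dish holds any cell with CD11b on its surface, and CD11b is the product of Itgam. The Acute group (3 libraries) was taken straight from the isolation, at 0 hours in culture and without serum. The TIC group (6 libraries) spent 8 days in serum-free TIC medium. The FCS 1d (5 libraries), FCS 3d (4 libraries) and FCS 5d (4 libraries) groups also spent 8 days in culture, and 10% fetal calf serum was added to the TIC medium for the last 1, 3 or 5 days. The labels do not spell out TIC. It is known from the published study as a defined medium with TGF-beta, IL-34 and cholesterol, so cultured cells were given a Csf1r ligand as protein. The series design calls the libraries biological replicates, and which of them came from the same rats is not stated in the sources used here.

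Libraries differed in ways the groups did not explain. All 3 Acute libraries, TIC 5, TIC 6 and FCS 1d 5 summed to between 564301 and 696703 FPKM, while 16 libraries, all of them cultured, summed to between 335470 and 434577. Acute 1, Acute 2 and 8 cultured libraries listed 934 to 1295 of the tested genes at 0, and 12 libraries listed 353 to 672. These sets are named below as high or low summed FPKM and as many or few zeros. Libraries were prepared and sequenced in 2 batches, and which library was in which is not given, so within-batch values could not be computed. FPKM hold no read totals, so the number of reads behind a value is unknown. A rough relative depth was read from the most frequent ratio between low values of the same gene, with TIC 1 at 1. It was 1.21 to 4.76 in libraries with few zeros and 0.84 to 1.78 in those with many, so the ranges overlapped. Its part in the zeros was not tested. The 9 microglial markers, Csf1r among them, summed to between 12371 and 17306 FPKM in Acute, between 904 and 1805 in TIC and between 1519 and 3348 in the serum groups. The 13 neutrophil markers summed to between 1929 and 16813 FPKM in Acute and between 4.65 and 64.5 in the 19 cultured libraries.

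**Figure D1:**
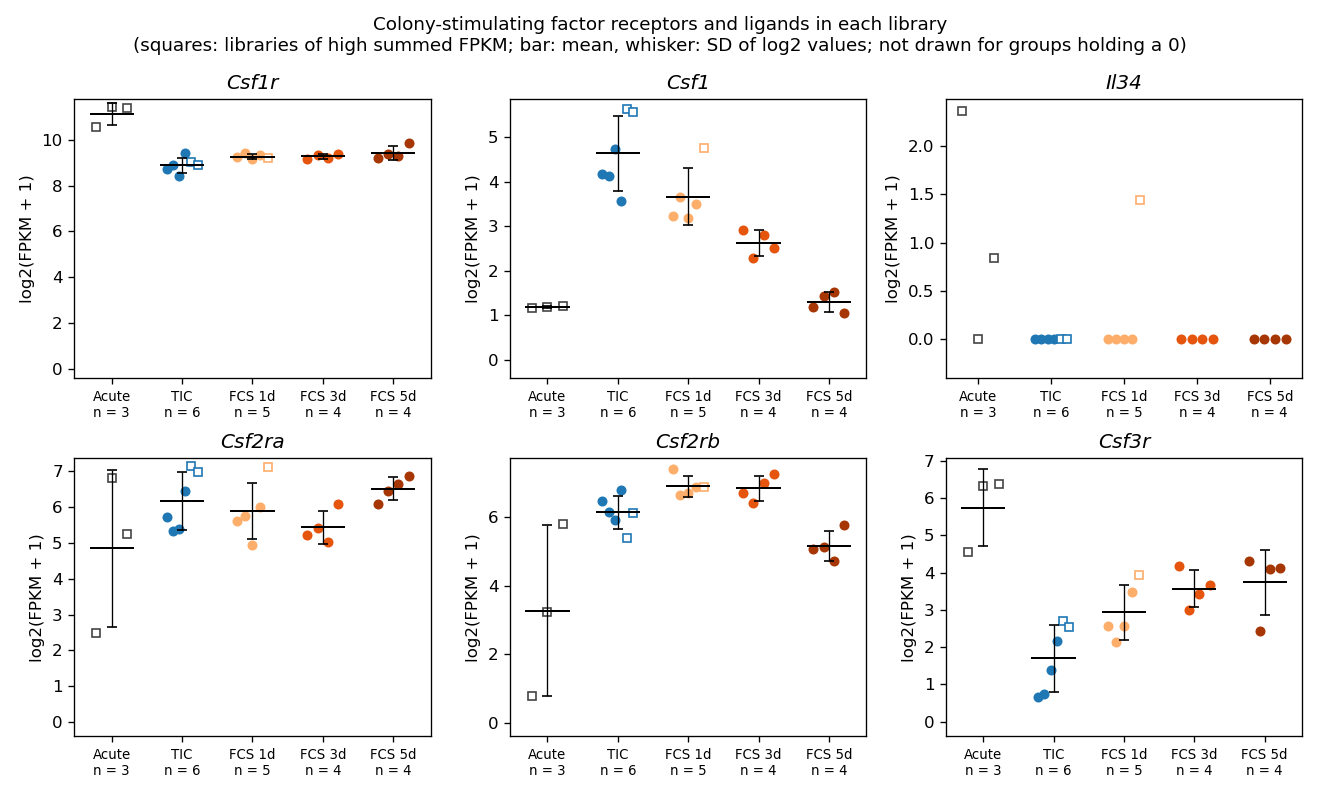
The log2(FPKM + 1) values of the 6 genes in each of the 22 libraries by group. Bars and whiskers are the mean and SD of the log2 values, drawn where no library of the group is at 0, and squares are the libraries of high summed FPKM. Csf1r sits highest in Acute, Csf1 highest in TIC, Csf2rb lowest in Acute and FCS 5d, and Csf3r lowest in TIC, while Il34 is at 0 in 19 libraries.

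In freshly isolated cells the receptor for CSF-1 and IL-34 was among the most abundant transcripts, and its ligand gene Csf1 was near the filter of 1 FPKM. After 8 days in TIC medium Csf1r was 4.78-fold lower in mean FPKM, Csf3r was lower too, and Csf1 and Csf2rb were higher, Csf2rb with 1 of the 3 Acute libraries at the TIC level. Of the 5 tested genes, 2 were called higher and 2 lower in TIC than in Acute by limma at an adjusted p under 0.05. In the same comparison 42.4% of all tested genes were called, 14.7% higher and 27.7% lower. The median log2 difference of all tested genes was -0.29, with 1424 genes called higher and 2682 lower. Median-of-ratios rescaling of the libraries moved that median to -0.0013 and the calls to 2022 higher and 1981 lower. After it the 4 called members kept their directions, with Csf1r at -1.88, Csf3r at -3.74, Csf1 at 3.61 and Csf2rb at 3.13 log2. Rescaling likewise moved the medians of the serum groups against Acute from between -0.38 and -0.29 to between -0.017 and 0.013.

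Csf1r stood at 1528, 2760 and 2687 FPKM in the 3 Acute libraries. In the TIC libraries its lowest, median and highest values were 344, 477 and 681 FPKM. It was 607, 689, 570.4, 639 and 586 FPKM in FCS 1d, 565, 650.2, 591 and 677 FPKM in FCS 3d, and 582, 664, 634 and 921 FPKM in FCS 5d. Every Acute library lay above every cultured one, whereas each serum group overlapped with TIC. Among all tested genes, 26% did not overlap between Acute and TIC, and 28.3%, 38.6% and 38.9% between Acute and FCS 1d, FCS 3d and FCS 5d. On the log2(FPKM + 1) scale the TIC minus Acute difference was -2.24 ± 0.24 (SE), with limma's adjusted p = 8.5e-08. An exact two-sided permutation test over the same 9 libraries gave p = 0.012, the smallest it can give. The difference ranged from -2.51 to -1.63 over the alternatives and stayed past the threshold in each.

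Csf1r kept a high place within each library even at its lower level. Counted from the most abundant gene, it ranked between 20 and 43 in Acute, between 71 and 225 in TIC, between 50 and 133 in FCS 1d, between 63 and 77 in FCS 3d and between 50 and 86 in FCS 5d. The order of the groups in mean FPKM was Acute, FCS 5d, FCS 3d, FCS 1d and TIC. Only the step from Acute to the next group passed the test. The FCS 5d minus Acute difference was -1.70 ± 0.26 log2 (limma's adjusted p = 1.6e-05), against -1.86 ± 0.26 for FCS 3d (6.0e-06) and -1.86 ± 0.24 for FCS 1d (2.7e-06). Quantile normalization brought these to -1.03 (0.0062), -1.03 (0.0059) and -1.02 (0.0047). Among libraries of high summed FPKM, with 1 FCS 1d library, the last was -1.94 (0.14).

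No serum group differed from TIC in Csf1r past the threshold. Mean log2 values were 0.37 ± 0.20 (SE, limma's adjusted p = 0.49), 0.38 ± 0.22 (0.33) and 0.53 ± 0.22 (0.11) above TIC after 1, 3 and 5 days. The last of these passed the test among the libraries of low summed FPKM alone, at 0.56 with adjusted p = 0.038, and after median-of-ratios rescaling, at 0.64 with adjusted p = 0.042. Comparisons with TIC share the same 6 TIC libraries, and those with Acute the same 3 Acute libraries. In bulk RNA, fewer cells that express a gene and less of its RNA per cell cannot be told apart.

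For 3 of the 6 genes a RefSeq promoter sequence (assembly GRCr8) was at hand. The 250 bases before each start were searched on both strands for GAGGAAG, a core of the kind bound by the myeloid factor PU.1, the product of Spi1. The motif was picked after these sequences had been read, so its presence once in each of the 3 is fixed by that choice. Of all 33469 RefSeq promoters of the same length 10.2% hold it. A match in letters is not a bound site, and the windows are shown as sequence context of the receptor genes. Each line gives 30 bases along the gene's strand, 5′ to 3′, with the motif in capitals.

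Csf1r, chr18:56834138-56834167, plus strand, motif on the opposite strand, 230 bases before the start: agattctgcctCTTCCTCtggtgtgtgtgt

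Csf2ra, chr14:118140-118169, minus strand, 41 bases before the start: aacccaaagatGAGGAAGtgggagcaaggg

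Csf3r, chr5:143583049-143583078, plus strand, 160 bases before the start: ctccttcctgaGAGGAAGgggctgtctatg

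The mean level of Spi1 itself was 215 FPKM in Acute, 224 in TIC, 169.5 in FCS 1d, 138 in FCS 3d and 196 in FCS 5d. It was called in none of these comparisons: the TIC minus Acute difference was 0.20 ± 0.41 log2 (limma's adjusted p = 0.72), and the serum groups differed from TIC by -0.35 (0.82), -0.56 (0.42) and -0.04 (0.97).

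Csf1, the gene of the ligand CSF-1, followed an order of its own. It was 1.25, 1.27 and 1.32 FPKM in the 3 Acute libraries. In TIC its lowest, median and highest values were 10.8, 21.4 and 48.1 FPKM, with the 2 highest in TIC 5 and TIC 6. It was 8.37, 11.7, 8.03, 10.3 and 26.1 FPKM in FCS 1d, 6.51, 3.87, 6.00 and 4.68 FPKM in FCS 3d, and 1.29, 1.70, 1.90 and 1.06 FPKM in FCS 5d. Every TIC library exceeded every Acute, FCS 3d and FCS 5d library, and the FCS 5d values overlapped with Acute. Groups did not overlap in 26% of all tested genes for Acute and TIC. The share was 11.9% for FCS 3d and TIC and 13.5% for FCS 5d and TIC.

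Csf1 was 3.44 ± 0.40 log2 higher in TIC than in Acute (limma's adjusted p = 3.1e-07). With serum it was lower than in TIC by a mean of -0.96 ± 0.34 log2 after 1 day (adjusted p = 0.16), -2.003 ± 0.36 after 3 days (7.5e-04) and -3.33 ± 0.36 after 5 days (9.4e-07). The 1-day difference passed the test without FCS 1d 5, at -1.24 with adjusted p = 0.036, and the 3-day difference did not pass it among the libraries with many zeros, at -1.49 with adjusted p = 0.085. Between FCS 5d and FCS 1d the difference was -2.36 ± 0.38 (2.9e-04), or -2.25 (0.10) among libraries with many zeros, which hold 1 FCS 5d library. The shorter steps, from 1 to 3 days (-1.04 ± 0.38, adjusted p = 0.22) and from 3 to 5 days (-1.33 ± 0.40, 0.19), did not pass. The libraries did not overlap in either step, as was so for 8.74% and 9.88% of all tested genes. Against Acute the Csf1 difference was 2.48 ± 0.41 log2 in FCS 1d (5.2e-05), 1.44 ± 0.43 in FCS 3d (0.010, but 1.18 with 0.32 among libraries with few zeros and 0.70 with 0.0999 at a pseudocount of 5) and 0.11 ± 0.43 in FCS 5d (0.86). Within TIC, Csf1 averaged 47.1 FPKM in the 2 libraries of high summed FPKM and 17.5 FPKM in the other 4. With summed FPKM as a term the FCS 5d minus Acute difference of Csf1 was 1.53 (adjusted p = 0.0033), a call the fit of all libraries did not make, and FCS 1d minus TIC was -0.78 (0.042). The TIC minus Acute difference was then 4.38 (8.9e-11), and the FCS 1d and FCS 3d differences from Acute were 3.61 (1.4e-08) and 2.85 (4.6e-06). All Acute libraries were of high summed FPKM and all FCS 3d and FCS 5d libraries of low. The term thus rests on TIC and FCS 1d, the groups with libraries of both kinds, and is carried over to Acute. These differences from Acute cannot be told apart from the library sets directly.

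Il34, the gene of the other Csf1r ligand, was listed at 0 in 19 of 22 libraries. It was 4.15 FPKM in Acute 1, 0 in Acute 2, 0.790 in Acute 3 and 1.71 in FCS 1d 5. All 6 TIC libraries, all 4 FCS 3d libraries and all 4 FCS 5d libraries were at 0. The 5 neuron markers, neurons being the main brain source of IL-34, summed to at most 18.1 FPKM in any library. An exact 0 in a table without counts can be a failed estimate, and no comparison of Il34 was made.

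The balance of receptor and ligand transcripts within a library was read from the ratio of Csf1r to Csf1. It was 1227 to 2181 in Acute, 10.3 to 62.8 in TIC, 22.4 to 72.5 in FCS 1d, 86.8 to 168 in FCS 3d and 334 to 866 in FCS 5d. The Acute, FCS 3d and FCS 5d ranges were apart from each other and from the remaining groups, and those of TIC and FCS 1d overlapped. A ratio within a library does not change when that library is rescaled as a whole.

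**Figure D2:**
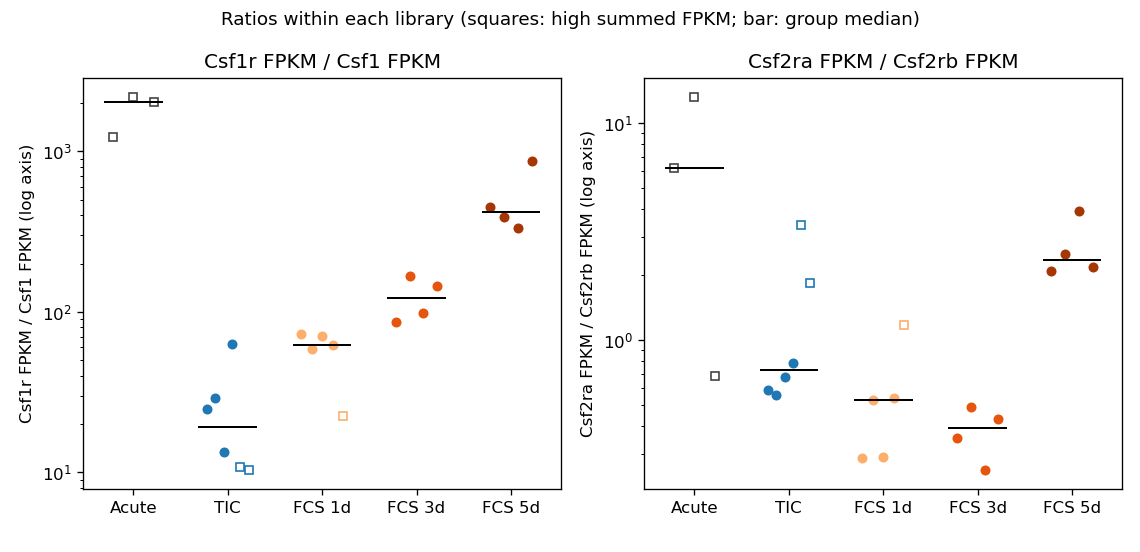
Ratios of FPKM within each library (log axis) by group, for Csf1r over Csf1 and Csf2ra over Csf2rb, with bars at the group medians and squares for libraries of high summed FPKM. Csf1r over Csf1 is 1227 or more in Acute and 62.8 or less in TIC, and Csf2ra over Csf2rb is 2.08 or more in FCS 5d and 0.494 or less in FCS 3d.

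The GM-CSF receptor chains did not move together. Csf2ra, the chain that binds GM-CSF, was 4.54, 111 and 37.2 FPKM in Acute. In TIC its lowest, median and highest values were 39.0, 68.9 and 139.8 FPKM. It was 48.0, 52.3, 29.8, 63.0 and 136 FPKM in FCS 1d, 36.1, 41.9, 31.6 and 66.7 FPKM in FCS 3d, and 67.3, 85.4, 99.3 and 116 FPKM in FCS 5d. The Acute libraries differed most among themselves, and the highest cultured values were those of TIC 5, TIC 6 and FCS 1d 5, the cultured libraries of high summed FPKM. TIC averaged 133 FPKM in its 2 libraries of that kind and 54.3 FPKM in the other 4.

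The TIC minus Acute difference of Csf2ra was 1.32 ± 0.62 log2 (limma's adjusted p = 0.089). It passed the test after median-of-ratios rescaling (1.64, adjusted p = 0.018), with summed FPKM as a term (2.26, 0.0073) and without Acute 2 (2.30, 0.0051), while without Acute 1 it was 0.13 (0.87). The summed FPKM term rests on TIC and FCS 1d libraries, as for Csf1. Differences from TIC after serum were -0.28 ± 0.53 (0.93), -0.73 ± 0.56 (0.50) and 0.35 ± 0.56 (0.78). FCS 5d lay above FCS 3d in all libraries, by 1.07 ± 0.62 log2 (0.80). These 2 groups did not overlap in 9.88% of all tested genes. The order of the groups in mean FPKM was FCS 5d, TIC, FCS 1d, Acute and FCS 3d, with no neighbours that passed the test. On the log2 scale FCS 3d lay above Acute, by 0.59 ± 0.67 (0.51). Its coding neighbours in GRCr8 are Ppp2r3b and Crlf2. The deposited counting is not stated to use strand, so reads of overlapping transcripts could not be told apart.

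Csf2rb, the chain that carries the signal, was 0.729, 8.41 and 54.5 FPKM in Acute. In TIC its lowest, median and highest values were 41.3, 69.4 and 109.8 FPKM. It was 168, 98.8, 103, 116 and 117 FPKM in FCS 1d, 102, 84.9, 126 and 153 FPKM in FCS 3d, and 32.4, 34.2, 25.2 and 53.5 FPKM in FCS 5d. Acute 1 and Acute 2 lay far below all cultured libraries, and Acute 3 lay within the TIC range. FCS 5d lay wholly below FCS 1d and FCS 3d. Among all tested genes, 12.2% did not overlap between FCS 5d and FCS 1d, and 9.88% between FCS 5d and FCS 3d.

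Csf2rb was 2.87 ± 0.59 log2 higher in TIC than in Acute (limma's adjusted p = 4.8e-04), and by 1.63 without Acute 1 (0.0087) or 4.13 without Acute 3 (2.2e-07). Among libraries with few zeros, where Acute 3 is the lone Acute library and is assumed to vary like the others, the difference was 0.31 (adjusted p = 0.72). Among those of high summed FPKM it was 2.49 (0.24). The difference from TIC was 0.75 ± 0.51 after 1 day of serum (0.64), 0.70 ± 0.54 after 3 days (0.50) and -0.98 ± 0.54 after 5 days (0.28). FCS 5d was lower than FCS 1d by a mean of -1.73 ± 0.56 (0.079), and than FCS 3d by -1.67 ± 0.59 (0.36). Among the 16 libraries of low summed FPKM the differences of FCS 5d passed the test, at -1.17 from TIC (0.0031). The 6 measured monocyte markers, another cell type with these receptors, summed to between 232 and 410.5 FPKM in Acute and between 602 and 2846 in culture, and their part in the Csf2rb differences was not tested.

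The same split of Acute libraries appeared in Itgam, the gene of the panning target CD11b. Itgam was 3.97, 9.14 and 87.2 FPKM in Acute 1, Acute 2 and Acute 3. In the cultured libraries it was 32.2 to 144.9 FPKM. Among all tested genes, Itgam was the one whose pattern over the 22 libraries was nearest to that of Csf2rb, by the root-mean-square difference of centred log2 values. That difference was 0.62, against a median of 1.65 over all tested genes. After Itgam came Lfng, which modifies Notch receptors (0.64), and Tuba4a, an alpha tubulin (0.71). The part of the library sets in this likeness was not tested. Against the same gene, the ratio of Csf1r to Itgam was 30.8 to 385 in Acute and 4.25 to 18.1 in the cultured libraries, with no overlap.

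**Figure D3:**
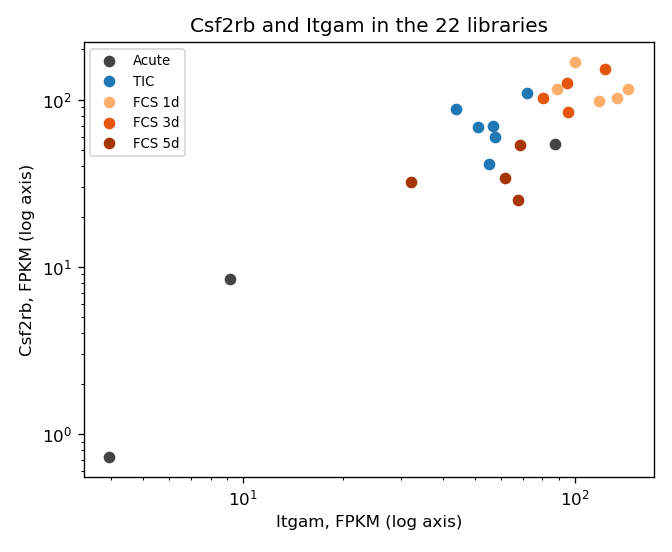
Csf2rb against Itgam in FPKM (both axes log), 1 point per library, coloured by group. Acute 1 and Acute 2 lie far below the other 20 libraries on both axes, and the FCS 5d points lie below those of FCS 1d and FCS 3d.

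The ratio of Csf2ra to Csf2rb separated the longest serum exposure from the shorter ones. It was 0.286 to 1.17 in FCS 1d, 0.251 to 0.494 in FCS 3d and 2.08 to 3.94 in FCS 5d. It was 0.557 to 3.39 in TIC and 0.682 to 13.2 in Acute, both overlapping with FCS 5d. In TIC the ratio was above 1 only in TIC 5 (3.39) and TIC 6 (1.83), the TIC libraries of high summed FPKM. The common chain was thus the more abundant transcript in all 4 FCS 3d libraries, and the alpha chain in all 4 FCS 5d libraries.

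Csf3r, the G-CSF receptor gene, was 22.6, 78.7 and 81.7 FPKM in Acute. In TIC its lowest, median and highest values were 0.592, 2.55 and 5.49 FPKM. It was 4.89, 3.41, 4.93, 10.1 and 14.2 FPKM in FCS 1d, 17.2, 6.97, 9.76 and 11.8 FPKM in FCS 3d, and 18.8, 4.42, 16.2 and 16.3 FPKM in FCS 5d. Every Acute library lay above every cultured one. All FCS 3d libraries lay above TIC, and 1 of the FCS 5d libraries lay within the TIC range. Among all tested genes, 11.9% did not overlap between FCS 3d and TIC. Between Acute and TIC, FCS 1d, FCS 3d and FCS 5d the shares were 26%, 28.3%, 38.6% and 38.9%.

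Csf3r was lower in TIC than in Acute by a log2 difference of -4.05 ± 0.53 (limma's adjusted p = 2.0e-06), or -4.65 without Acute 1 and -3.17 (6.5e-05) with summed FPKM as a term. The serum groups lay above TIC by 1.24 ± 0.45 log2 after 1 day (0.19), 1.88 ± 0.48 after 3 days (0.014) and 2.04 ± 0.48 after 5 days (0.0058). Among libraries with few zeros the last 2 differences were 0.87 (0.33) and 1.09 (0.14), and without FCS 3d 1 the 3-day difference was 1.67 (0.065). In the fit of all libraries the level was below Acute in each serum group, by -2.82 ± 0.55 (3.2e-04), -2.18 ± 0.57 (0.0045) and -2.01 ± 0.57 (0.0079), or -3.41, -2.77 and -2.60 without Acute 1. These calls did not hold under every alternative. With summed FPKM as a term the differences were -1.76 (0.024), -0.85 (0.35) and -0.68 (0.46). Among libraries with many zeros the last 2 were -1.63 (0.061) and -1.13 (0.28), the latter with 1 FCS 5d library, and among those of high summed FPKM the first was -1.82 (0.29), with 1 FCS 1d library. All Acute libraries were of high summed FPKM and all FCS 3d and FCS 5d libraries of low, so the groups and these sets cannot be told apart directly. The order in mean FPKM was Acute, FCS 5d, FCS 3d, FCS 1d and TIC, and of the steps between neighbours the one below Acute passed the test in that fit, but not with summed FPKM as a term or among libraries with many zeros.

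Csf3r was lower in culture than in Acute, and so were the summed neutrophil markers and the summed microglial markers. Within culture the neutrophil sum was 4.65 to 38.8 FPKM in TIC and 22.2 to 64.5 in FCS 1d. It was 13.6 to 59.5 in FCS 3d and 9.19 to 12.3 in FCS 5d. Mean Csf3r in these groups was 2.77, 7.51, 11.4 and 13.9 FPKM. The 10 tested neutrophil markers were lower in TIC than in Acute, where 27.7% of all tested genes were called lower. Each of the 10 reached the filter in the Acute libraries alone, so nothing is drawn from their count. Of these markers, S100a9, Mmp8, Ngp, Elane and Retnlg were at 0 in all 19 cultured libraries. Their direction was thus fixed in advance. Camp, Fcnb and Hp were at 0 in 12, 13 and 15 of the 19 cultured libraries. The neutrophil granule protein gene S100a9 was 1267, 11587 and 6765 FPKM in Acute. The neutrophil chemokine receptor gene Cxcr2 was 0.80, 1.57 and 10.0 FPKM in Acute and at most 0.87 FPKM in culture. The eosinophil and basophil list summed to between 445 and 3779 FPKM in Acute and to 0 in culture. The part of these cells in the level of Csf3r was not tested. Of the same list, Lcn2 was above 0 in all 19 cultured libraries, at up to 39.5 FPKM, and S100a8 in 16 of 19, at up to 50.3 FPKM.

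**Figure D4:**
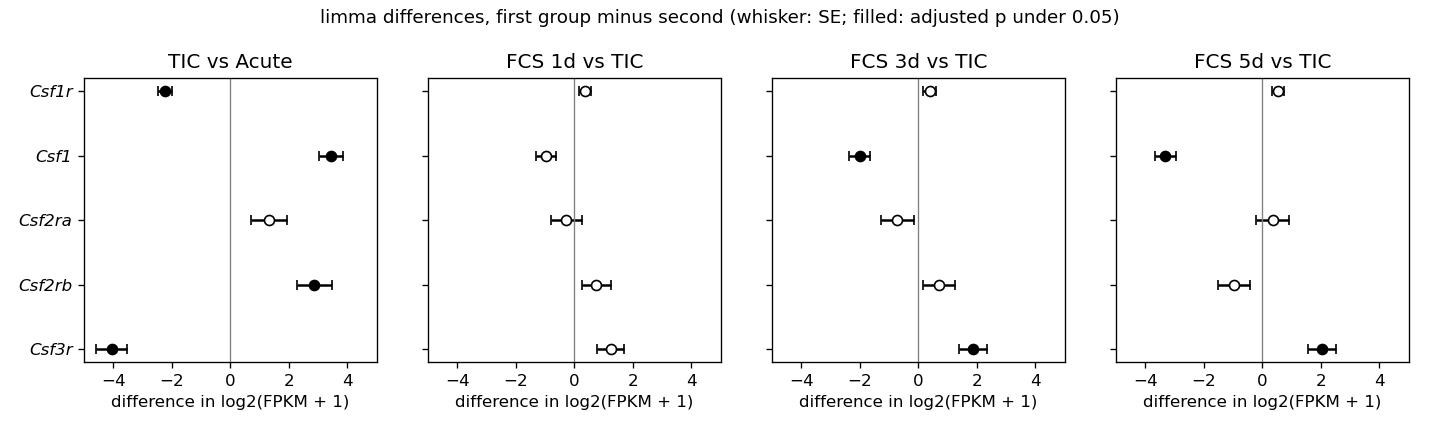
Log2 differences of the 5 tested genes with SE bars, for TIC against Acute and each serum group against TIC, with filled points where limma's adjusted p is under 0.05. Csf1 goes from 3.44 above Acute in TIC to 3.33 below TIC after 5 days of serum, and Csf3r goes from 4.05 below Acute to 2.04 above TIC.

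In the comparisons of serum groups with TIC, at most 2 of the 5 tested genes were called in the fit of all libraries. After 1 day of serum 0 of the 5 tested genes were called by limma, beside 2.92% of all tested genes (1.22% higher, 1.7% lower), while 1201 of all tested genes had an unadjusted p under 0.05. After 3 days Csf3r was called higher and Csf1 lower, beside 10.1% of all tested genes (4.13% higher, 5.95% lower). After 5 days Csf3r was again called higher and Csf1 lower, beside 12.9% (4.81% higher, 8.1% lower). Between FCS 5d and FCS 1d, 1 of the 5 was called, Csf1, beside 5.38% (1.92% higher, 3.46% lower). Between FCS 3d and FCS 1d, and between FCS 5d and FCS 3d, 0 of the 5 were called by limma, beside 1.08% (0.444% higher, 0.64% lower) and 0.629% (0.279% higher, 0.351% lower), while 1089 and 742 of all tested genes had an unadjusted p under 0.05. Against Acute, 4 of the 5 tested genes were called in FCS 1d, beside 38.3% of all tested genes (12.4% higher, 25.9% lower), and 4 in FCS 3d, beside 39.4% (11.9% higher, 27.4% lower). In FCS 5d, 4 were called, beside 39.8% (12% higher, 27.9% lower), among them Csf2ra at 1.67 ± 0.67 log2 with adjusted p = 0.0499, a call that 14 of 20 alternative limma fits did not make, with 0.48 (0.54) without Acute 1 and 2.65 (0.0031) without Acute 2. Csf2rb was 3.62 ± 0.61, 3.57 ± 0.64 and 1.90 ± 0.64 log2 above Acute after 1, 3 and 5 days (6.8e-05, 1.5e-04 and 0.022). Without Acute 1 the first 2 were 2.38 and 2.33, and without Acute 3 all were larger, at 4.89, 4.83 and 3.16. Among libraries with few zeros it was 1.02 (0.20), 1.05 (0.21) and -0.59 from Acute. The 5-day difference was also short of the threshold without Acute 1 at 0.66 (0.32), without Acute 2 at 1.88 (0.057), without FCS 5d 4 at 1.70 (0.058), and with summed FPKM as a term at 1.53 (0.19).

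Few genes of other ligands and partner chains were detected. Of 8, 3 were tested, and Il3, Il5 and Il5ra were listed at 0 in all 22 libraries. Csf2, the gene of GM-CSF, was above 0 in TIC 1 (4.20 FPKM) and TIC 4 (1.08 FPKM) alone. Csf3, the gene of G-CSF, ranged from 0 to 2.62 FPKM. Sdc1, a proteoglycan that binds IL-34, was the 1 called gene, in TIC against Acute, beside 42.4% of all tested genes called. Its mean was 1.33 FPKM in Acute and 9.56 in TIC, a log2 difference of 2.17 ± 0.45 (limma's adjusted p = 4.7e-04). In FCS 1d it averaged 26.5 FPKM, 1.33 ± 0.38 above TIC (0.062).

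Of 25 tested adaptors and signal proteins downstream of Csf1r, 6 were higher and 9 lower in TIC than in Acute, beside 14.7% higher and 27.7% lower among all tested genes, with a median of -0.38 log2 against -0.29. Dok2, a docking protein that restrains tyrosine kinase signals, averaged 9.59 FPKM in Acute and 211 in TIC (5.26 ± 0.55, limma's adjusted p = 6.3e-08). Gab2, a scaffold between Csf1r and PI3 kinase, rose by 2.67 ± 0.44 (4.2e-05). Dusp6, a phosphatase that acts on ERK, fell by 1.93 ± 0.38 on the log2 scale (2.7e-04), and the kinase gene Akt1 fell by 1.89 ± 0.58 (0.011). With serum, 0 rose and 2 fell after 1 day, beside 1.22% higher and 1.7% lower among all tested genes. After 3 days 0 were called by limma, beside 10.1% of all tested genes. After 5 days 2 rose and 3 fell, beside 4.81% higher and 8.1% lower. Dok2 was among the falls after 1 day, at -2.14 ± 0.47 (0.0091).

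Among 10 tested growth and survival genes, 4 rose and 0 fell in TIC against Acute, beside 14.7% higher and 27.7% lower among all tested genes. Ccnd1, the cyclin D1 gene and a known target of Csf1r signals in macrophages, averaged 25.7 FPKM in Acute and 262 in TIC (3.63 ± 0.42, limma's adjusted p = 3.0e-07). Bcl2l1, the gene of the survival protein Bcl-xL, rose from 44.1 to 158 FPKM (1.90 ± 0.29, 1.8e-05). After 5 days of serum 3 of the 10 were lower than in TIC and 0 higher, beside 8.1% lower and 4.81% higher among all tested genes. Among the 3 was Bcl2l1 at 69.4 FPKM (-1.16 ± 0.27, 0.0048). Ccnd1 did not pass then, at 142 FPKM (-0.79 ± 0.38, 0.19).

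Of 11 tested Jak-Stat proteins and feedback targets of the common beta chain, 3 rose and 1 fell in TIC. Among all tested genes 14.7% were called higher and 27.7% lower. With serum 0 were called by limma after 1 day, beside 2.92% of all tested genes. After 3 days 1 fell and after 5 days 1 fell, beside 5.95% and 8.1% called lower. Pim1, a kinase gene induced through Stat5, rose by 1.81 ± 0.57 in TIC (limma's adjusted p = 0.014) and after 3 days of serum was -2.41 ± 0.52 from TIC (0.0038). Cish, a feedback gene of Stat5, averaged 3.86 FPKM in TIC and was -1.77 ± 0.52 from TIC after 5 days (0.026). Of 10 transcription factors known to act on Csf1r or with it, 2 rose and 2 fell in TIC, beside the same 14.7% higher and 27.7% lower. Egr2 averaged 26.0 FPKM in TIC and 3.99, 2.61 and 3.66 FPKM in the serum groups, all called lower than TIC (adjusted p = 0.010, 0.0034 and 0.0071).

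Of 12 tested chains of other cytokine receptors, 2 were higher and 8 lower in TIC than in Acute, beside 14.7% higher and 27.7% lower among all tested genes, with a median of -1.16 log2 against -0.29. Crlf2, a receptor chain for TSLP and the coding neighbour of Csf2ra, averaged 3.67 FPKM in Acute and 53.1 in TIC (3.91 ± 0.59, limma's adjusted p = 1.5e-05). Il6st, the shared signal chain of the IL-6 family, fell by 4.35 ± 0.39 on the log2 scale (4.7e-09). Il21r fell by 3.68 ± 0.37 (3.6e-08), and with serum was 2.41 (6.2e-05), 2.82 (7.9e-06) and 2.26 (6.1e-05) above TIC after 1, 3 and 5 days. Il21r was also one of the 5 genes nearest to Csf3r over the 22 libraries, at 0.77, where Tmem176a was nearest at 0.69 and the median over all tested genes was 1.48. Il2rg, the common gamma chain, averaged 94.2 FPKM in TIC and 7.81 in FCS 5d (-3.53 ± 0.43, 5.0e-06).

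By the same measure of likeness, the genes nearest to Csf1r were Rcsd1 (0.27), Srgap2 (0.28) and Zfp710 (0.28), with a median of 0.88 over all tested genes. For Csf1 they were the small GTPase gene Rhoc (0.55), the G-protein regulator gene Rgs1 (0.57) and Flrt3 (0.59), with a median of 1.56. For Csf2ra they were Ankrd33b (0.55) and Msn, the gene of the cytoskeletal linker moesin (0.56), with a median of 1.17. Of the other class III receptor tyrosine kinases and their ligands, the family of Csf1r, 3 of 8 were tested. In TIC against Acute 0 of them were called, beside 42.4% of all tested genes. Pdgfa, the PDGF-A ligand gene, averaged 24.4 FPKM in TIC and 1.19 in FCS 5d (-2.93 ± 0.65, limma's adjusted p = 0.0034).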

How the data were processed

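The authors deposited one table of FPKM, with 1 column per library. The submitters' processing notes name HISAT2 2.0.3, Cufflinks 2.2.1 and build rn6, with no role or settings. Libraries were poly-A SmartSeq2 cDNA cut with Nextera XT and read in pairs on a MiSeq, per the labels' protocols. Which annotation was used, whether counting used strand and how libraries were scaled is not stated in the sources used here.

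From the table, log2(FPKM + 1) was computed with a pseudocount of 1, so fold changes of low genes are understated. The 9691 genes that reached 1 FPKM in 3 or more libraries were fitted together, with 1 mean for each of the 5 groups, by limma 3.58.1 (R 4.3.3) with trended and robust variances, two-sided, with Benjamini-Hochberg adjustment over all tested genes of a comparison. Adjusted p values are limma's. The fit was also tested on simulated data. Errors beside log2 differences are SE from the fit. All 10 pairs of groups were compared.

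The members and gene lists were chosen with earlier results of these data known. The named genes are the 6 members, the 5 genes nearest each member, called list members, and partners. Pairing by replicate number was checked and did not hold. Alternatives covered the pseudocount, filter, rescaling, library sets, groups fitted, the replicate block and each library left out. Promoter windows come from the RefSeq table of GRCr8, whose coordinates are not those of rn6.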

Additional observations from a re-analysis of the deposited data

Results flagged for a closer look

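In FCS 1d, 3 member values lay apart from the other 4 libraries of the group. Csf1 was 26.1 FPKM in FCS 1d 5, where the next highest was 11.7. Il34 was 1.71 FPKM in FCS 1d 5 and 0 in the others. Csf2rb was 168 FPKM in FCS 1d 1, where the next highest was 117. FCS 1d 5 is the FCS 1d library of high summed FPKM, and its part in these values was not tested. Of 21 member and group pairs examined, 3 stood apart in this way. Chance marks about 1 in 20 where values are normally spread, and the FPKM examined were not put on a log scale. The Il34 value stands apart by construction, since all others of its group are 0. Acute, with 3 libraries, was below the smallest group size of 4 and was not examined.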

How the results depend on the processing

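Of the single member differences under each setting, 1085 kept the direction and the side of the threshold, 39 fell short of it, 40 newly passed it and 21 changed sign. These counts include the exact permutation test, whose unadjusted p was held against the same threshold, so some of the 40 passed without adjustment. Causes were not tested beyond the smaller number of libraries where a set or a library was left out.

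The number of tested members called, 4 in TIC with Acute and 0 in FCS 3d with FCS 1d, stayed within 1.5 times under the alternative limma fits. The exact permutation test, whose p is unadjusted, put Csf1 past 0.05 in FCS 3d with FCS 1d (0.016) and in FCS 5d with FCS 3d (0.029). In FCS 1d with TIC, 0 were called, and 1 with the replicate block, 2 with the summed FPKM as a term and 0 to 1 with a library left out. In FCS 3d with TIC, 2 became 1 among libraries with few zeros, 1 among those with many, and 1 to 2 with a library left out. In FCS 5d with TIC, 2 became 1 with few zeros and 4 with low summed FPKM. In FCS 5d with FCS 3d, 0 became 2 with low summed FPKM, 2 in a fit of only the groups compared, and 1 each with median-of-ratios rescaling, quantile normalization, the replicate block and the summed FPKM as a term. In FCS 5d with FCS 1d, 1 became 0 with many zeros, 3 with low summed FPKM, and 2 each with few zeros, only the groups compared, a pseudocount of 5 and the zeros as a term. In FCS 1d with Acute, 4 became 1 with high summed FPKM, a set with 1 FCS 1d library that is assumed to vary like the others. In FCS 3d with Acute, 4 became 2 with few zeros. In FCS 5d with Acute, 4 became 2 with few zeros, many zeros or only the groups compared, and 2 to 3 with a library left out.

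Sign changes were in differences that were not called, with 1 exception: Csf2rb in FCS 5d with Acute was -0.59 log2 with few zeros. Csf2ra in FCS 1d with TIC was 0.041 with high summed FPKM and 0.20 with many zeros, and in FCS 5d with TIC -0.21 with few zeros. With a library left out, Csf2ra ran from -0.15 to 2.02 in FCS 1d with Acute and from -0.59 to 1.57 in FCS 3d with Acute, lowest without Acute 1. In FCS 3d with FCS 1d, Csf1r was -0.014 with low summed FPKM, -0.16 with many zeros, -0.014 with quantile normalization and -0.038 to 0.049 with a library left out, and Csf2rb was 0.031 with few zeros and -0.20 to 0.085 with a library left out. In FCS 5d with FCS 1d, Csf1r was -0.15 with many zeros and -0.0046 with quantile normalization. In FCS 5d with FCS 3d, Csf3r was -0.023 to 0.60 with a library left out.

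Libraries with the same replicate number did not deviate together in every pair, the lowest correlation of a comparison running from -0.10 to 0.097, so the numbers are not taken as pairs. The block added the call of Csf3r in FCS 1d with TIC (1.40, limma's adjusted p = 0.033) and of Csf1 in FCS 5d with FCS 3d (-1.33, 0.010), and changed no other member call. Libraries with few zeros hold 1 Acute library, and those with many zeros 1 FCS 5d library. Read totals are unknown, and Il34, at 0 in 19 of 22 libraries, could not be compared.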
